A study of Rattus norvegicus with 6 samples.

Results

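Leukocyte lineage markers are genes whose transcripts come mainly from white blood cells, so in whole kidney they give a view of the immune cells of the tissue. The set held 39 rat genes, chosen by name as lineage markers at a time when earlier results of these data were known. They comprised 15 markers of macrophages and monocytes, 5 of leukocytes in general or of several lineages, 2 of neutrophils, 10 of T cells, 5 of B and plasma cells and 2 of natural killer and other cytotoxic cells. A probe was matched for 34 of them, 38 probes in all, among 15162 named genes on the array. Of the 34 genes, 25 were bright enough to be tested and 9 were not, and Itgax, Ms4a7, Cd79a, Ms4a1 and Jchain had no matched probe.

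Bailing Capsule is a preparation of fermented Cordyceps mycelium, and 3 kidney samples from rats given it were compared with 3 kidney samples from diabetic rats. All samples came from rats of 21 weeks, and total RNA of the tissue was labelled with Cy3 and hybridised to Agilent one-colour arrays. The labels name no strain, sex, dose or length of treatment, do not say how diabetes arose, and do not say whether the treated rats were diabetic. No untreated, non-diabetic group was analysed here. Nothing in the labels says that replicates of a group were separate animals, so a p-value here speaks only of the spread among the samples, which may be technical.

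Macrophages are the most common resident leukocytes of the kidney, where they take up debris and immune complexes and make the C1q chains that start the classical complement pathway. Neutrophils and monocytes carry large amounts of S100A8 and S100A9, which pair to form calprotectin, a calcium-binding protein that is released during inflammation. T cells sense antigen through a receptor that signals through the CD3 chains and the kinases LCK and ZAP70, while B cells use the CD79 chains, and cytotoxic lymphocytes kill through granules that contain granzymes. In diabetic kidney disease, macrophages and T cells are known to gather in the interstitium.

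Each value is a scaled signal, the log2 of a probe's processed intensity minus the 75th percentile of its array, so 0 stands for a signal as bright as that percentile. A probe was tested if it was well above the local background on all 3 arrays of at least 1 group. Differences are Bailing Capsule minus diabetic, and a feature was called at an adjusted p under 0.05 in limma over 18335 features. Arrays had 65.04% to 73.66% of probes well above background in the Bailing Capsule group and 66.74% to 69.32% in the diabetic group. Pairs of arrays correlated at 0.966 to 0.992 across the tested features with a value on all 6 arrays. The median difference of all features was -0.09, with 6950 features above 0 and 11385 below. Markers of proximal tubule (5 of 5), podocytes (5 of 5) and collecting duct (4 of 4) were well above background on all 6 arrays. Per the file headers, all 3 Bailing Capsule arrays and diabetic replicate 1 shared a scan time, and diabetic replicates 2 and 3 shared another on the same day. A difference with scan as a block therefore equals the one within the first scan, where diabetic replicate 1 alone stands for its group.

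None of the 25 tested leukocyte markers was called by limma, beside 54 of all 18335 features, or 0.295% (0.125% called higher and 0.169% called lower). At an unadjusted p under 0.05, 5 markers (20.0%) passed, beside 7.58% of all features. C1qa, C1qc and Gzma did so with higher values in Bailing Capsule kidneys, as 3.14% of all features did, and S100a8 and S100a9 with lower ones, as 4.44% did. The number passing depended on the processing. It was 6 of 25 markers with quantile scaling and 1 of 25 with normexp background correction, beside 1636 and 1277 of 18335 features. With the brightness filter on all 6 arrays it was 2 of 19, beside 1132 of 17015 features. The groups did not overlap for 6 markers (24.0%), beside 11.9% of all features. C1qa, C1qc and Ptprc had all Bailing Capsule values above the diabetic ones, as 4.73% of all features did, and S100a8, S100a9 and Cd8b had them all below, as 7.18% did. Of the 25, 6 had passed the brightness filter through 1 group only, beside 1323 of all 18335 features. They were S100a8, S100a9, Lck, Cd14, Gzma and Nkg7, and such a filter favours a difference. Since these are bulk samples, fewer cells of a type and less RNA per cell cannot be told apart.

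**Figure D1:**
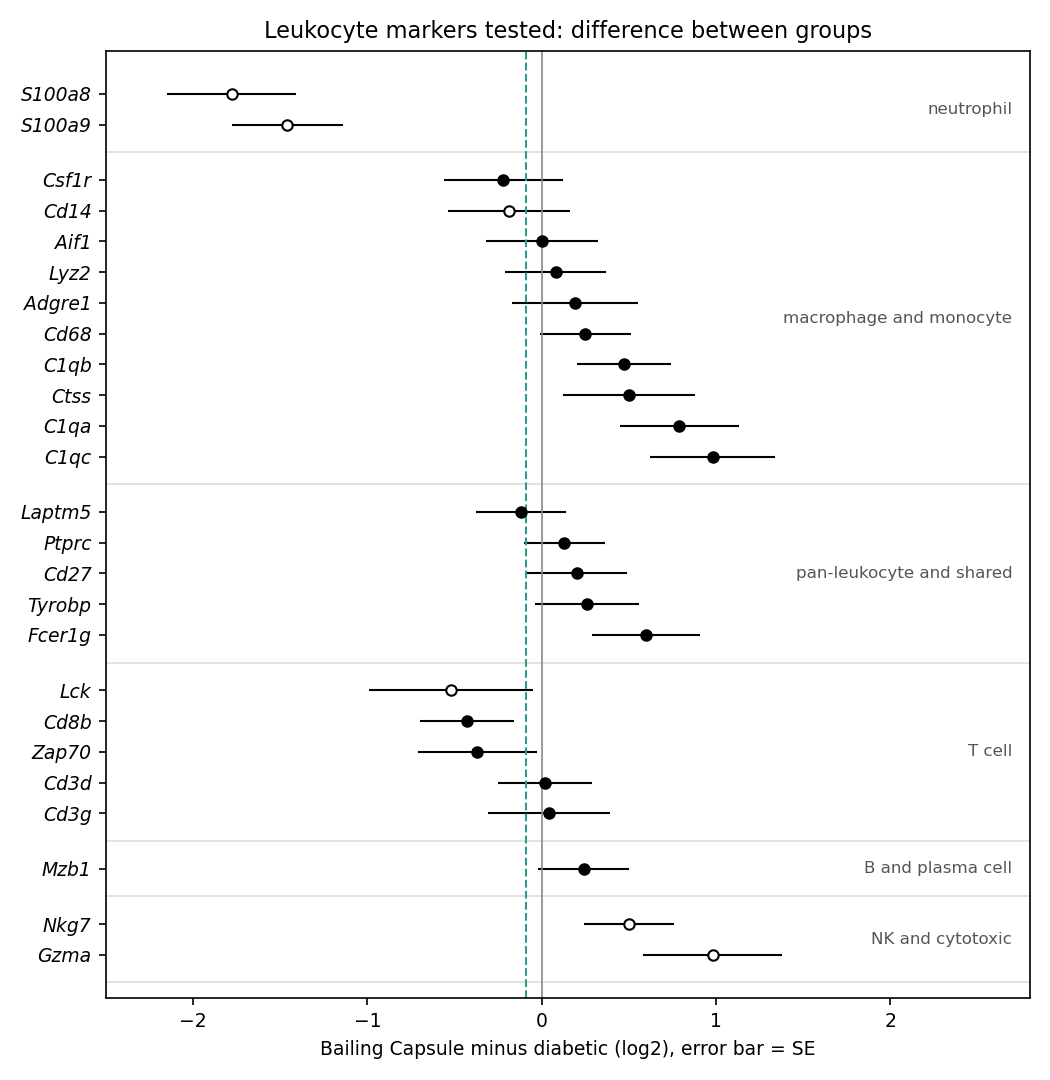
Difference of scaled signal, Bailing Capsule minus diabetic, in log2 units on the horizontal axis for each of the 25 tested leukocyte markers, grouped by lineage, with the standard error as bars, the median of all features (-0.09) as a dashed line, and open circles for markers not well above background on every array. S100a8 (-1.78) and S100a9 (-1.46) lie far to the left, C1qc and Gzma (0.98 each) are farthest to the right, and the other markers lie between -0.52 (Lck) and 0.79 (C1qa).

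The neutrophil pair S100a8 and S100a9 had lower values in all 3 Bailing Capsule kidneys than in any diabetic kidney, 3.44-fold and 2.75-fold by the group means, and neither was called. S100a8, the smaller chain of calprotectin, had scaled signals of -5.4, -5.14 and -4.41 in the Bailing Capsule group, against -3.88, -2.73 and -2.98 in the diabetic group. The closest values were those of Bailing Capsule replicate 3 and diabetic replicate 1. The group means were -4.98 ± 0.51 and -3.2 ± 0.6 (SD, n = 3 each), a difference of -1.78 (SE 0.37, adjusted p = 0.114). S100a9, the larger chain of the same protein, had -5.29, -5.37 and -4.65 in the Bailing Capsule group, against -4.17, -3.41 and -3.35 in the diabetic group. The same pair of arrays came closest. Its means were -5.1 ± 0.39 and -3.64 ± 0.45 (SD, n = 3 each), a difference of -1.46 (SE 0.32, adjusted p = 0.133). By p-value the genes ranked 106th and 128th of all 18335 features.

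Both neutrophil genes were dim. Each was well above background on 2 of 3 Bailing Capsule arrays and on 3 of 3 diabetic arrays, so both passed the filter through the diabetic group. Without diabetic replicate 1, the lowest diabetic array for both, the differences were -2.12 (adjusted p = 0.021) and -1.72 (adjusted p = 0.0319), and both genes were called. That setting called 185 of all 18335 features. Its diabetic arrays all had the second scan time and its Bailing Capsule arrays the first, so group and scan cannot be told apart there. With scan as a block, and so against diabetic replicate 1 alone, the differences of S100a8 and S100a9 were -1.1 and -0.94. With normexp background correction they were -0.43 (adjusted p = 0.488) and -0.22 (adjusted p = 0.81). That setting adds an offset of 50 to each signal, beside median processed intensities of 23.39 to 42.52 per array. The offset by itself makes the differences of dim genes smaller. The setting also used the median spot signal and quantile scaling, and the part of each was not tested. Of the other granulocyte and mast cell genes listed, 5 of 20 were tested, with a median difference of -0.37 and 1 above 0. The groups overlapped for all 5, which were named after their values were seen. The difference was 0.11 (adjusted p = 0.981) for Csf3r, a neutrophil growth factor receptor, -0.18 (adjusted p = 0.974) for Ncf1, a subunit of the phagocyte oxidase, and -0.37 (adjusted p = 0.966) for Elane, neutrophil elastase, the last from 2 arrays of each group. It was -0.4 (adjusted p = 0.944) for Kit, the stem cell factor receptor of mast cells, and -0.76 (adjusted p = 0.694) for Hdc, the enzyme that makes histamine. Elane was far brighter than Csf3r, with diabetic means of 4.14 and -4.43, and whether its signal comes from neutrophils was not tested.

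S100a8 and S100a9 are neighbours in RefSeq, with no gene between them. The promoter of S100a9 is shown because the pair differed together and because myeloid genes are known to be driven by PU.1 and C/EBP factors. It is the RefSeq (GRCr8) sequence of 300 bases around the gene start at chr2:178490573-178490872, minus strand, 5′ to 3′ along the gene. Capitals mark matches on either strand to the PU.1 core GAGGAA (printed as TTCCTC where it lies on the other strand), the C/EBP pattern TTNNGNAA (also read on the other strand) and the TATA box TATAAA.

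S100a9: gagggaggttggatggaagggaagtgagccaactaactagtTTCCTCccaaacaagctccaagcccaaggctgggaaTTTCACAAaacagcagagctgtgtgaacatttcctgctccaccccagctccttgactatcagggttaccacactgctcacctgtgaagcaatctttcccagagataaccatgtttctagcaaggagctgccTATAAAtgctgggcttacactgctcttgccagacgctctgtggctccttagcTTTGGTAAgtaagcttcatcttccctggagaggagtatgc

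The S100a9 window held 1 PU.1 core, 2 C/EBP matches and 1 TATA box that lay 42 bases before the start. Over all 33469 promoters in the table, 27.6% held the PU.1 core, 41.3% the C/EBP pattern and 14.2% the TATA box, on either strand. Of the 30 leukocyte markers with an entry, 17 held the PU.1 core, 15 the C/EBP pattern and 3 the TATA box (S100a9, Ctss and Laptm5). These matches describe letters only.

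**Figure D2:**
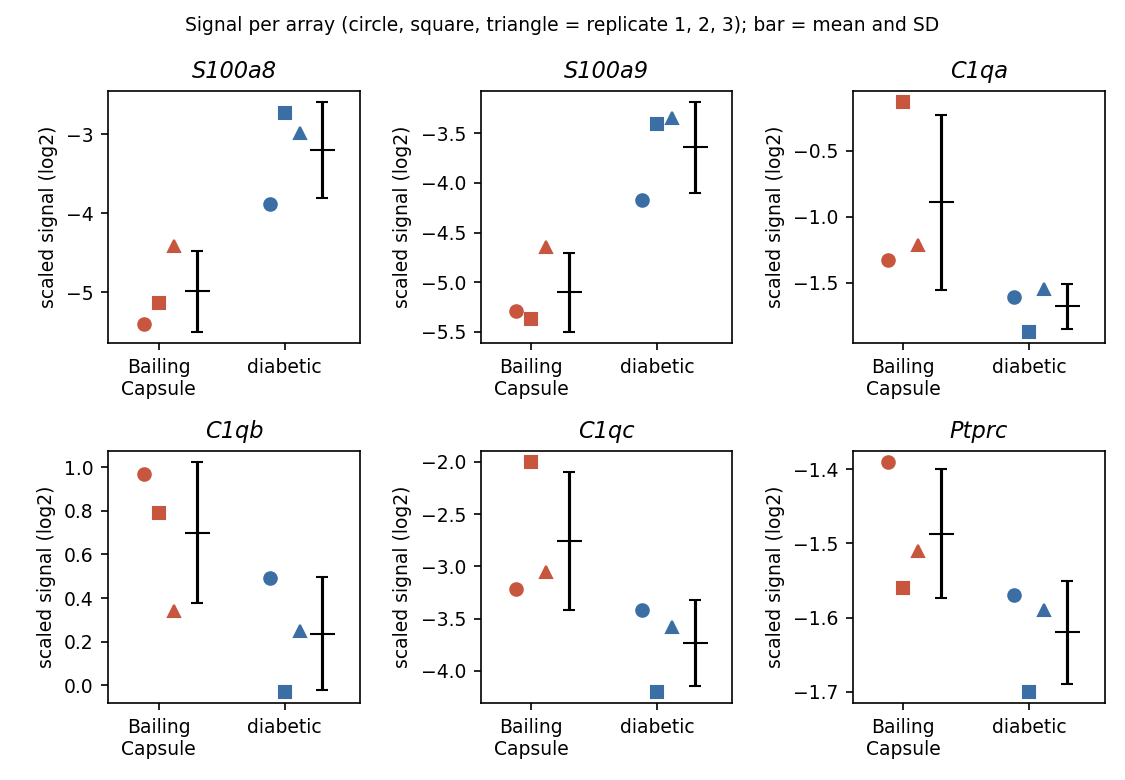
Scaled signal (log2) on each array for S100a8, S100a9, C1qa, C1qb, C1qc and Ptprc, with 1 panel and axis per gene, Bailing Capsule left of diabetic, the replicate number as the marker shape, and the mean with SD beside the points. The groups are apart for all but C1qb, and Bailing Capsule replicate 2 stands above its group for C1qa (-0.13) and C1qc (-2.0).

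Macrophage and monocyte markers gave a median difference of 0.22 over the 10 tested, with 8 above 0 and 2 below, beside -0.09 for all features, and none was called. C1qc and C1qa, chains of the complement starter C1q, had its largest differences. C1qc had -3.22, -2.0 and -3.05 in the Bailing Capsule group, against -3.42, -4.2 and -3.58 in the diabetic group. Replicates 1 and 3 of Bailing Capsule lay just above the highest diabetic value, and replicate 2 lay well above it. The difference was 0.98 (SE 0.36, adjusted p = 0.5). C1qa had -1.33, -0.13 and -1.21 in the Bailing Capsule group, against -1.61, -1.87 and -1.55 in the diabetic group, a difference of 0.79 (SE 0.34, adjusted p = 0.62). Its groups did not overlap either, and replicate 2 was again the highest. C1qb had 0.97, 0.79 and 0.34 in the Bailing Capsule group, against 0.49, -0.03 and 0.25 in the diabetic group, a difference of 0.47 (SE 0.27, adjusted p = 0.808). Here Bailing Capsule replicate 3 fell among the diabetic values, and replicate 1 was the highest.

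Without Bailing Capsule replicate 2, the differences of C1qc and C1qa were 0.6 and 0.41. With scan as a block they were 0.66 and 0.72, and that of C1qb was 0.21. With normexp background correction that of C1qc was 0.4 and that of C1qa 0.47. The C1q genes lie side by side in RefSeq in the order C1qa, C1qc and C1qb. The promoters of C1qa and C1qb are shown for comparison with that of S100a9, on the same build and with the same marks. They lie on the minus strand at chr5:154419884-154420183 for C1qa and at chr5:154407778-154408077 for C1qb.

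C1qa: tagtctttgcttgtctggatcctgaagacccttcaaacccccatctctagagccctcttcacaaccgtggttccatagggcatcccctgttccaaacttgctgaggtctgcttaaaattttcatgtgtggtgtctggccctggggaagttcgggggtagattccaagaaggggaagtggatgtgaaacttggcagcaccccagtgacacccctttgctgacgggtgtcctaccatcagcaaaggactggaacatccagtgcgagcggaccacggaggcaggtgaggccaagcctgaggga

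C1qb: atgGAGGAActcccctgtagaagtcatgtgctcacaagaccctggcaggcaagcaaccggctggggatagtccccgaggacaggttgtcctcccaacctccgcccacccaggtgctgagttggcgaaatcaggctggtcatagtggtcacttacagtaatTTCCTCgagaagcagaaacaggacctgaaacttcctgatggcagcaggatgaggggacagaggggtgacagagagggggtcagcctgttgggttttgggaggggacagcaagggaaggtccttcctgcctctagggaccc

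The C1qb window held 2 PU.1 cores and neither other motif. None of the 3 motifs had a match in the C1qa window, so no capitals appear there.

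Lyz2 and Aif1 had differences close to 0. Lyz2, the macrophage and neutrophil form of lysozyme, had 6.27, 5.32 and 5.71 in the Bailing Capsule group, against 5.67, 5.54 and 5.85 in the diabetic group, a difference of 0.08 (SE 0.29, adjusted p = 0.986). Bailing Capsule replicates 1 and 2 were the highest and lowest of all 6. Aif1, an actin-binding protein of macrophages also called Iba1, had 2.88, 1.71 and 2.58 in the Bailing Capsule group, against 2.24, 2.43 and 2.49 in the diabetic group, a difference of 0.0 (adjusted p = 1.0). The diabetic values lay within the range of the Bailing Capsule ones. Another Aif1 probe had 1.89, 1.67 and 1.63 in the Bailing Capsule group, against 1.15, 1.6 and 1.41 in the diabetic group. Its groups did not overlap, with a difference of 0.34 (adjusted p = 0.893 with each probe tested on its own), so the probes of Aif1 disagree.

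The other 5 macrophage markers tested had differences of -0.22 to 0.5, with overlapping groups and adjusted p of 0.904 or more. They were Ctss, a lysosomal protease (0.5), Cd68, a lysosomal glycoprotein (0.25), Adgre1, a surface receptor used to stain macrophages (0.19), Cd14, the co-receptor for endotoxin (-0.19), and Csf1r, the receptor for macrophage growth factor (-0.22). Cd14 was well above background on 2 of 3 Bailing Capsule arrays, and a second Csf1r probe gave 0.09. Bailing Capsule replicate 2 was the highest array for 6 of the 10 markers, namely Cd68, Adgre1, Cd14, C1qa, C1qc and Ctss, and the lowest for Csf1r, Lyz2 and Aif1. Diabetic replicate 2 was the lowest for Cd68, Adgre1, C1qa, C1qb, C1qc and Ctss. Without that array the median was 0.09, without diabetic replicate 1 it was 0.13, and without diabetic replicate 3 it was 0.45. Ctss had a difference of 0.12 without Bailing Capsule replicate 2, and Adgre1 of -0.14.

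Itgam, Cd163 and Mrc1 were too dim to be tested. Itgam, the alpha chain of the complement receptor CD11b, was well above background on 2 Bailing Capsule arrays and 1 diabetic array. Cd163, the haemoglobin scavenger receptor, was so on 1 Bailing Capsule array and on no diabetic array. Mrc1, which encodes the mannose receptor of tissue macrophages, was so on no array.

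Genes shared by several leukocyte types had a median difference of 0.2 over 5, with 4 above 0, and none was called. Ptprc encodes CD45, a phosphatase on all white blood cells. It had -1.39, -1.56 and -1.51 in the Bailing Capsule group, against -1.57, -1.7 and -1.59 in the diabetic group. The groups did not overlap, but by a gap far smaller than the SE, and the difference was 0.13 (SE 0.23, adjusted p = 0.973). A second Ptprc probe gave -0.21 with overlapping groups, and the mean of both gave -0.04, so the direction depends on the probe. Fcer1g, the gamma chain that Fc receptors signal through, had 0.98, 1.25 and 0.49 in the Bailing Capsule group, against -0.16, 0.38 and 0.71 in the diabetic group, a difference of 0.6 (SE 0.31, adjusted p = 0.742). Diabetic replicate 3 lay within the Bailing Capsule values. Another Fcer1g probe had -0.75, -0.82 and -0.82 in the Bailing Capsule group, against -1.48, -1.6 and -1.57 in the diabetic group. Here the groups lay well apart, with a difference of 0.75 (adjusted p = 0.317 with each probe tested on its own). Both Fcer1g probes had the same direction, and with scan as a block the first gave 1.07 (adjusted p = 0.819).

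Tyrobp encodes DAP12, the adaptor of activating myeloid and natural killer receptors. It had 0.75, 0.76 and 0.14 in the Bailing Capsule group, against -0.16, 0.54 and 0.48 in the diabetic group, a difference of 0.26 (SE 0.3, adjusted p = 0.965). Diabetic replicate 1 was the lowest array for Tyrobp, as it was for Fcer1g. Laptm5, a lysosomal membrane protein of blood cells, had 0.81, 0.42 and 0.28 in the Bailing Capsule group, against 0.49, 0.54 and 0.84 in the diabetic group, a difference of -0.12 (SE 0.26, adjusted p = 0.98). The costimulatory receptor gene Cd27, which lymphocytes carry, had -3.62, -4.26 and -3.32 in the Bailing Capsule group, against -3.73, -4.0 and -4.06 in the diabetic group. Its difference was 0.2 (SE 0.29, adjusted p = 0.97), and the groups overlapped for all 3 of these genes.

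**Figure D3:**
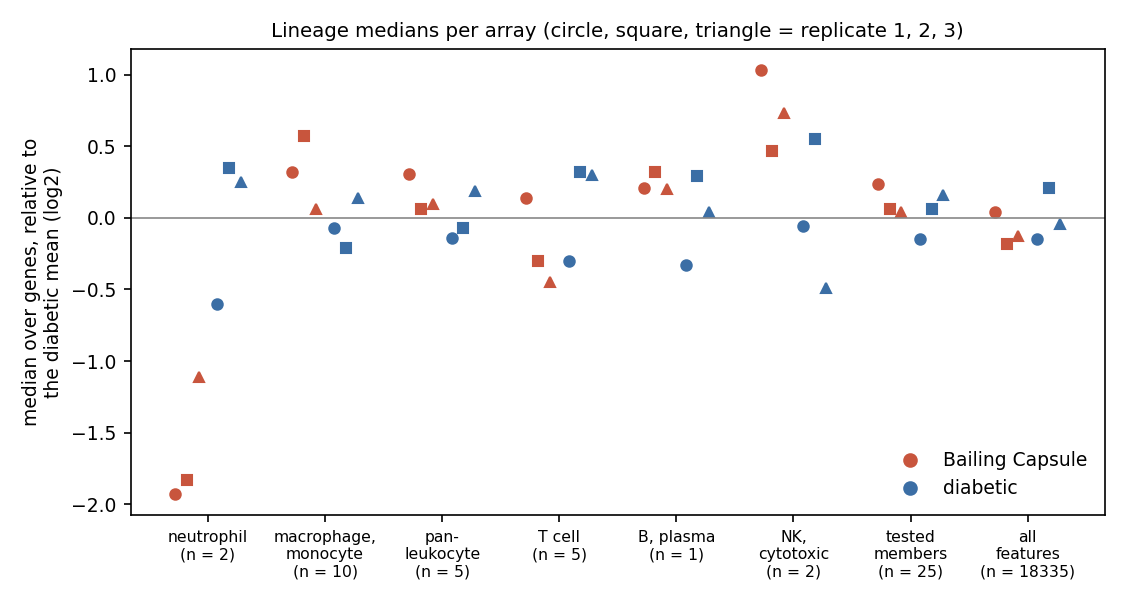
Median over the tested genes of each lineage on each array, as a log2 difference from the diabetic mean of each gene, with Bailing Capsule points left of diabetic points, the replicate number as the marker shape and the number of genes under each name. The neutrophil medians of Bailing Capsule arrays (-1.93, -1.83 and -1.11) lie below those of diabetic arrays (-0.6, 0.35 and 0.25), and the medians over the 25 tested markers (0.24, 0.06 and 0.04 against -0.15, 0.06 and 0.16) overlap.

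T cell markers had a median difference of -0.37 over the 5 tested, with 2 above 0 and 3 below, and none was called. Cd8b, the beta chain of the CD8 co-receptor of cytotoxic T cells, had -3.85, -3.94 and -3.93 in the Bailing Capsule group, against -3.58, -3.79 and -3.06 in the diabetic group. The groups did not overlap, the Bailing Capsule values lay close together, and diabetic replicate 3 was far above the rest. The difference was -0.43 (SE 0.27, adjusted p = 0.838). Lck, the kinase bound to CD4 and CD8, had -4.14, -4.52 and -5.73 in the Bailing Capsule group, against -4.58, -3.41 and -4.85 in the diabetic group, a difference of -0.52 (SE 0.47, adjusted p = 0.94). It was well above background on 2 of 3 Bailing Capsule arrays, and its groups overlapped. Zap70, the kinase recruited to the CD3 chains, had -2.28, -2.61 and -2.6 in the Bailing Capsule group, against -2.89, -1.71 and -1.79 in the diabetic group, a difference of -0.37 (SE 0.34, adjusted p = 0.944). Diabetic replicate 1 was the lowest of all 6 arrays for Zap70 and the other diabetic replicates were the highest, and with scan as a block the difference was 0.39.

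The CD3 chain genes Cd3g and Cd3d, parts of the T cell receptor complex, had differences close to 0. Cd3g had 3.6, 2.77 and 2.96 in the Bailing Capsule group, set against 2.77 and 3.36 in diabetic replicates 1 and 3, a difference of 0.04 (SE 0.35, adjusted p = 0.995). Its 10 spots on diabetic replicate 2 were all flagged as outliers, so that array was left out of the fit for this gene. Cd3d had -0.73, -1.16 and -0.91 in the Bailing Capsule group, against -1.3, -0.74 and -0.82 in the diabetic group, a difference of 0.02 (SE 0.27, adjusted p = 0.999). Diabetic replicate 1 was the lowest array for Cd3d too. The chains differed widely in brightness, with Bailing Capsule means of 3.11 for Cd3g, -0.94 for Cd3d and -5.52 for Cd3e. Whether the bright Cd3g signal comes from T cells was not tested.

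The T cell median moved with single arrays. On Bailing Capsule arrays it was 0.14, -0.3 and -0.45 relative to the diabetic mean, against -0.3, 0.32 and 0.3 on diabetic arrays. For all 5 genes diabetic replicate 1 lay below the mean of the other diabetic values, with a median gap of -0.52, beside -0.23 for all features. With scan as a block the T cell median was 0.34, without Bailing Capsule replicate 3 it was -0.05, without diabetic replicate 2 it was -0.08, and without diabetic replicate 3 it was -0.2.

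The remaining 5 T cell markers were too dim to be tested. Cd3e, the epsilon chain of the same complex, was well above background on 2 Bailing Capsule arrays and on no diabetic array. It had -4.61, -5.62 and -6.33 in the Bailing Capsule group, against -7.02, -7.29 and -6.6 in the diabetic group. Bailing Capsule values were all higher, but the diabetic level is known only as a bound. Cd4, the co-receptor of helper T cells, was well above background on 1 diabetic array but on none of the Bailing Capsule group. Its values were -7.22, -5.87 and -6.14 in the Bailing Capsule group, against -5.78, -4.87 and -5.49 in the diabetic group. Cd8a, Cd2 and Cd5, the alpha chain of CD8 and a pair of T cell surface receptors, were well above background on no array. Several defining T cell markers were thus at or near background in these kidneys, and with all 10 included the median difference was 0.03.

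B cells left few measured markers. Mzb1, a chaperone of antibody assembly in B and plasma cells, had -3.84, -3.72 and -3.84 in the Bailing Capsule group, against -4.37, -3.76 and -4.0 in the diabetic group, a difference of 0.24 (SE 0.26, adjusted p = 0.957). The groups overlapped, and diabetic replicate 1 was again the lowest array. Without it the difference was 0.08, and with scan as a block it was 0.57. Cd79b, the signalling chain of the B cell receptor, was well above background on no array.

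Both cytotoxic markers had higher means in Bailing Capsule kidneys, and neither was called. Gzma, the granule protease granzyme A, had -3.53, -4.32 and -4.21 in the Bailing Capsule group, against -4.95, -4.23 and -5.83 in the diabetic group, a difference of 0.98 (SE 0.4, adjusted p = 0.58). Diabetic replicate 2 lay among the Bailing Capsule values, and the gene was well above background on 2 of 3 diabetic arrays. Without diabetic replicate 3 the difference was 0.57. Nkg7, a granule membrane protein of natural killer and T cells, had -4.85, -5.18 and -4.78 in the Bailing Capsule group, against -5.61, -5.11 and -5.59 in the diabetic group, a difference of 0.5 (SE 0.26, adjusted p = 0.75). The groups overlapped, since diabetic replicate 2 lay above Bailing Capsule replicate 2. The gene was well above background on all 3 Bailing Capsule arrays and on no diabetic array, so its diabetic level is known only as a bound. Both genes passed the brightness filter through the Bailing Capsule group, the one in which they were higher. With normexp background correction, whose offset makes differences of dim genes smaller, the differences of Gzma and Nkg7 were 0.18 and 0.07.

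**Figure D4:**
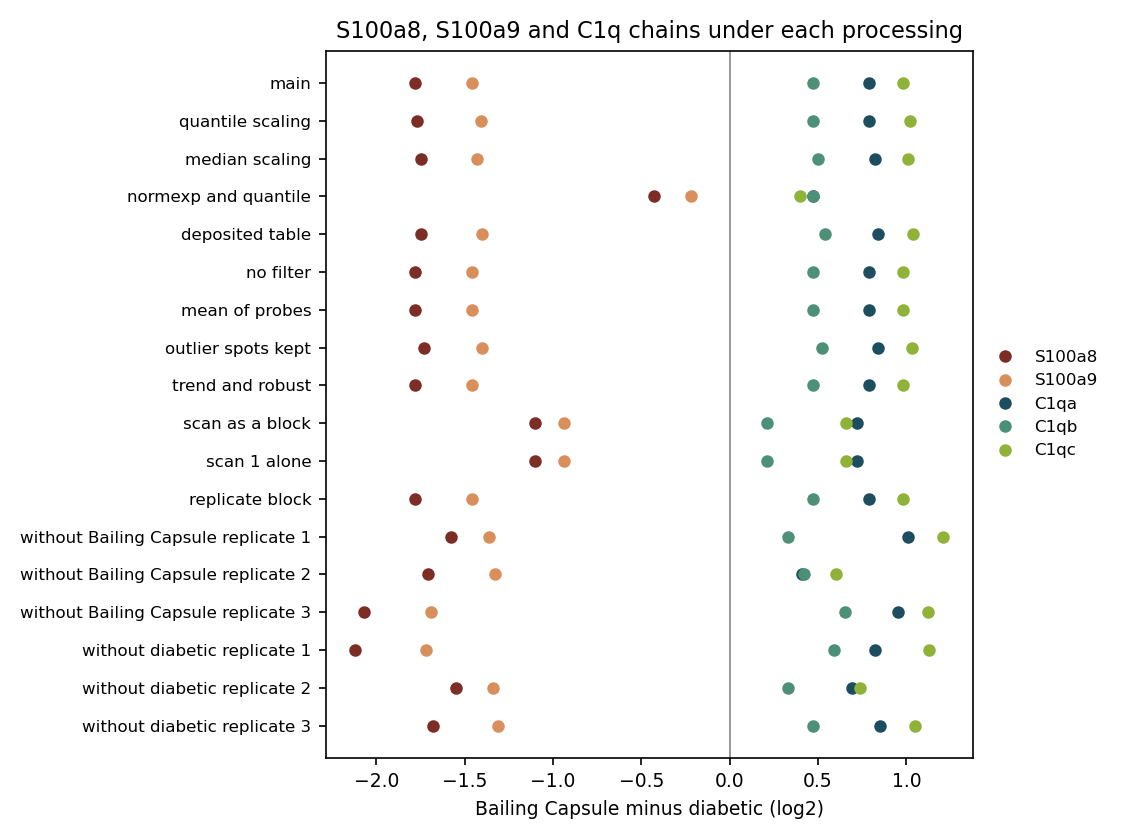
Difference of S100a8, S100a9, C1qa, C1qb and C1qc, Bailing Capsule minus diabetic in log2 units on the horizontal axis, 1 row per setting, with the filter on all 6 arrays, which left no neutrophil marker, and each probe on its own not drawn. S100a8 and S100a9 stay below 0 and the C1q chains above it in the rows drawn, and with normexp background correction S100a8 (-0.43) and S100a9 (-0.22) lie nearest to 0.

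Among the 24 markers with a value on all 6 arrays, Bailing Capsule replicate 2 was the highest array for 9 (37.5%), beside 19.7% of all features, and the lowest for 6 (25.0%), beside 31.3%. Diabetic replicate 2 was the highest for 4 (16.7%), beside 40.5% of all features, and the lowest for 7 (29.2%), beside 4.56%. Diabetic replicate 1 was the lowest for 6 (25.0%), close to the 24.5% of all features, and the highest for none, beside 7.78%. The median over all tested markers lay at 0.24, 0.06 and 0.04 on Bailing Capsule arrays, against -0.15, 0.06 and 0.16 on diabetic arrays, while that of all features lay at 0.04, -0.18 and -0.13 on Bailing Capsule arrays, against -0.15, 0.21 and -0.04 on diabetic arrays.

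A wider list of 128 further leukocyte genes gave 67 tested genes, of which 36 had a difference above 0 and 31 below, with a median of 0.07, and none was called by limma. At an unadjusted p under 0.05, 10 passed (14.9%), and for 10 the groups did not overlap (14.9%), beside 7.58% and 11.9% of all features. Among general leukocyte genes, Cd52, a small surface glycoprotein of lymphocytes and monocytes, had -3.19, -3.96 and -3.16 in the Bailing Capsule group, against -4.68, -5.01 and -4.31 in the diabetic group. The groups did not overlap, with a difference of 1.23 (SE 0.31, adjusted p = 0.207), and the gene was well above background on 2 of 3 diabetic arrays. Itgb2, the integrin beta chain that CD11b and its relatives need to reach the cell surface, had 0.24, 0.05 and 0.11 in the Bailing Capsule group, against 0.96, 1.03 and 0.98 in the diabetic group. Both groups were tight and lay apart in the opposite direction, with a difference of -0.86 (SE 0.23, adjusted p = 0.255).

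Of the further macrophage and dendritic cell genes, 21 were tested, with 10 above 0, 11 below and a median of -0.01. Gpnmb and Trem2, which encode membrane proteins of lipid-laden macrophages, had the lowest p-values. Gpnmb had -1.78, -2.12 and -2.92 in the Bailing Capsule group, against -1.44, -1.4 and -0.91 in the diabetic group, a difference of -1.02 (SE 0.33, adjusted p = 0.366). Trem2 had -2.52, -3.3 and -2.96 in the Bailing Capsule group, against -2.18, -2.5 and -1.35 in the diabetic group, a difference of -0.92 (SE 0.35, adjusted p = 0.507). For both genes the groups did not overlap and the Bailing Capsule values were the lower ones, whereas C1qa and C1qc had the higher ones. Neither gene was called.

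Of the further T and natural killer cell genes, 17 were tested, with 11 above 0, 6 below and a median of 0.2. Gzmb, the granule protease granzyme B, had -0.87, -1.45 and -0.96 in the Bailing Capsule group, against -0.74, -0.18 and -0.38 in the diabetic group, a difference of -0.66 (SE 0.28, adjusted p = 0.596). Its groups did not overlap, and its sign was opposite to that of Gzma. Diabetic replicate 1 was the lowest array for 10 of the 17 genes, and for 8 of the 14 further general leukocyte genes, beside 24.5% of all features. In the other further lists it was the lowest for 7 of 20 macrophage and dendritic genes, 3 of 10 B and plasma cell genes and 0 of 4 granulocyte and mast cell genes.

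Markers of other cells that a kidney sample can hold were read the same way, and no adipocyte, red cell, platelet or lymph node gene was called. Of 3 tested adipocyte genes of 5 listed, all had lower means in Bailing Capsule kidneys, the median difference was -1.89 and the lowest adjusted p was 0.061. The groups did not overlap for 2 of them. They overlapped for Adipoq, which had a difference of -0.46 (adjusted p = 0.954). Their summed signal, in units of the 75th percentile of an array, was 11.9, 3.84 and 8.96 in the Bailing Capsule group, against 17.3, 17.1 and 11.5 in the diabetic group. Bailing Capsule replicate 2 was the lowest array for all 3. Red cell and platelet genes had a median difference of 0.55 over 6 of 10, 5 of them above 0. Their summed signal was 293, 145 and 195 in the Bailing Capsule group, against 130, 175 and 194 in the diabetic group. Genes of lymph node stroma had a median of 0.0 over 3 of 5, and summed to 3.0, 1.44 and 1.87 in the Bailing Capsule group, against 2.21, 3.51 and 3.94 in the diabetic group. That sum mainly follows Ccl19, the brightest of the 3, which had a difference of -0.88. The differences of Cxcl13 and Ccl21 were 0.51 and -0.0. The adipocyte hormone gene Lep, the platelet chemokine gene Ppbp and the lymph node genes Cr2 and Fcer2 were too dim to be tested. The part of these cells in the leukocyte values was not tested.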

How the data were processed

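Agilent one-colour rat arrays measured kidney total RNA of 6 samples, 3 per group. Per the file headers, Feature Extraction 11.0.1.1 (protocol GE1_1100_Jul11, build rn4) gave the deposited intensity of each spot after background subtraction, without scaling one array to another. The deposited table of log2 values served as an alternative. All its columns had a median of 5.05, so the authors' values were equalised between arrays, and, from the same values, genes were not centred. How the authors made it is not given in the sources used here.

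Spots flagged as outliers (597 to 1091 of 42877 per array) were dropped and a probe's spots averaged. From the log2 signal, the 75th percentile of its array was then subtracted. No spot was saturated. For a probe to be well above background on an array, at least 50% of its spots had to be, and a gene with several kept probes was represented by the brightest. RefSeq accessions named 17997 of 30367 probes through the RefSeq table of GRCr8, and 12370 stayed unnamed here. Differences were tested with limma 3.58.1 under R 4.3.3 (lmFit, eBayes, Benjamini-Hochberg adjustment over 18335 features, 681 of them lacking a value on at least 1 array), and the fit was tested on simulated data. In those data, 3% of features changed by 1 log2 unit were called, 71.6% of those changed by 2 and 90.9% of those changed by 3. A marker that differs by 1 unit or less would thus seldom be called. The number of arrays limits the precision.

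The members and lists were chosen with earlier results of these data known. Values on all arrays are given for tested members that were called, had groups that did not overlap, or were among the 3 lowest p-values or the 2 brightest of their lineage, and further genes are named where called or among the 2 lowest p-values of their list. 1 gene that this rule names is not reported here. A mean spot signal was not analysed here, so the median spot signal entered normexp (offset 50). The alternatives also covered median or quantile scaling, values of the deposited table, no brightness filter or one over all 6 arrays, probes averaged or taken singly, outlier spots kept, another variance model, scan or replicate number as a block, scan 1 alone, and each array left out in turn.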

Additional observations from a re-analysis of the deposited data

How the results depend on the processing

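The number of called features was 54 and became 12 with normexp, 6 without the filter, 9 within scan 1 alone, 6 with the replicate block, and 17 to 185 when 1 array was left out. Of the calls, 42.6% were higher in Bailing Capsule kidneys. That share was 53.5% with the deposited table, 73.7% with scan as a block, 55.6% within scan 1, 16.7% without the filter, and 26.6% to 52.9% when 1 array was left out. The median of all features was -0.09, and 0.09 with scan as a block. No tested marker was called except without diabetic replicate 1, where S100a8 and S100a9 were (0 to 2 markers over the left-out arrays). That setting called 185 of all 18335 features, and in it the groups had different scan times, so group and scan cannot be told apart. No pair of same-numbered samples deviated together (r of -0.176, -0.138 and 0.024), so the replicate block is only a check, and it called 0 markers.

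Left-out arrays gave lineage medians of -1.92 to -1.45 for neutrophil, 0.09 to 0.45 for macrophage, -0.48 to -0.05 for T cell, 0.08 to 0.39 for B cell, 0.5 to 1.02 for cytotoxic and 0.14 to 0.17 for shared markers. Normexp moved the neutrophil median to -0.33, the T cell median to -0.02 and the cytotoxic median to 0.12. Without the filter, with more genes, the T cell median was 0.03 and the B cell median 0.02. Scan as a block, and scan 1 alone, gave -1.02 for neutrophil, 0.34 for T cell and 0.57 for B cell markers. The filter on all 6 arrays left no neutrophil or cytotoxic marker. The offset of normexp makes differences of dim genes smaller by construction. That setting also changed the spot signal, the background correction and the scaling, and the part of each was not tested. The cause of the other shifts was not tested either.

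Single genes turned sign as follows: Cd3d (-0.01) with normexp; Ptprc (-0.04) with the mean of probes; Zap70 (0.39), Csf1r (0.36), Cd27 (-0.0) and Laptm5 (0.02) with scan as a block and within scan 1. With left-out arrays, Adgre1 ranged over -0.14 to 0.48, Aif1 over -0.24 to 0.34, Cd14 over -0.57 to 0.1, Cd27 over -0.01 to 0.46, Cd3d over -0.16 to 0.13, Cd3g over -0.25 to 0.34, Csf1r over -0.5 to 0.03 and Lyz2 over -0.17 to 0.3. S100a8, S100a9, Lck, Cd14, Gzma and Nkg7 lay near background on some arrays, where signal over background limits what can be measured.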

Other observations

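Of the further B and plasma cell genes, 10 were tested, with 3 above 0, 7 below and a median of -0.17, and none was called. Prdm1, the regulator that turns B cells into plasma cells, had scaled signals of -6.73, -5.34 and -5.37 in the Bailing Capsule group, against -4.55, -4.8 and -4.51 in the diabetic group. The groups did not overlap, with a difference of -1.2 (SE 0.37, adjusted p = 0.335), and the gene was well above background on 2 of 3 Bailing Capsule arrays. Cd37, a membrane protein of B cells, had -2.52, -3.78 and -3.64 in the Bailing Capsule group, against -3.22, -1.81 and -2.27 in the diabetic group. Its groups overlapped, with a difference of -0.88 (SE 0.43, adjusted p = 0.704).

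Among mast cell genes, Hdc, the enzyme that makes histamine, had -3.88, -5.39 and -4.55 in the Bailing Capsule group, against -3.73, -4.0 and -3.8 in the diabetic group, a difference of -0.76 (SE 0.36, adjusted p = 0.694). Kit, the stem cell factor receptor of mast cells, had -3.3, -4.19 and -4.56 in the Bailing Capsule group, against -4.15, -3.4 and -3.31 in the diabetic group, a difference of -0.4 (SE 0.37, adjusted p = 0.944). Both had overlapping groups.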
